A study of Mus musculus with 8 samples.

Results

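The genes described here are the contactins and the contactin-associated proteins, matched by name in the deposited gene table to Cntn1, Cntn2, Cntn3, Cntn4, Cntn5, Cntn6, Cntnap2, Cntnap4, Cntnap5a and Cntnap5b, which are 10 of its 38553 genes. They were measured by RNA-Seq in 8 libraries from the medial entorhinal cortex (MEC) of mice, 4 from its dorsal and 4 from its ventral part, and the comparison asks how the expression of adhesion genes differs along the dorsoventral axis of this area. The tissue was from 13 male C57BL/6JolaHsd mice aged 8 weeks, for which the labels name no treatment or allele, and both regions of the right hemisphere were dissected from 1 sagittal slice of 400 µm per animal. The mice were divided into 4 groups and the tissue of 3 or 4 mice was pooled for each region, so the spread between libraries is a spread between pools and does not show that between animals. RNA integrity numbers were 7.1 to 8.5, and cDNA was amplified from 120 ng of RNA. Values are FPKM, the fragments of a gene per kilobase of exon, scaled by the number of fragments mapped.

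The region of each library was taken by matching means to the deposited comparison table. Which mean of that table is dorsal and which ventral comes from the supplementary datasets of the study. The column headers were not used, since they disagree with this assignment on 4 libraries. The columns headed D1, V1, D2 and V2 were used as dorsal and those headed D3, V3, D4 and V4 as ventral. With this assignment the means equalled the authors' dorsal and ventral means within 0.1% in 21861 of the 21876 genes with both means above 0. Of the 70 possible assignments, the second best matched 1273 genes, and the regions in the headers matched 326. Every direction given here rests on this assignment. With the regions of the headers, 0 of the 10 members were called by limma in either direction, 0 had an unadjusted p under 0.05, and in all genes 1 call was made.

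Contactins are adhesion molecules of the immunoglobulin superfamily that are tethered to the outer face of the membrane by a lipid anchor. Contactin-associated proteins, also called Caspr proteins, are transmembrane relatives of the neurexins, and several of them bind a contactin in the same membrane. The best known pairs organise myelinated axons, where contactin-1 and Caspr face the glial loops at the paranode and contactin-2 and Caspr2 hold Kv1 potassium channels beside it. Other members act in axon guidance and synapse formation, and several of the human genes have been linked to autism.

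Of the 10 members, 4 were expressed at a higher level in dorsal than in ventral MEC (D>V), namely Cntn4, Cntn6, Cntn2 and Cntnap5b. By limma 0 were called V>D, and 6 were not called in either direction. At an unadjusted limma p under 0.05, 5 members were higher dorsally and 1 ventrally. Of all 13674 genes tested, 1191 were higher dorsally and 1000 ventrally at such a p. Cntn4 had the largest difference, with a ventral mean that was 45.1% of the dorsal mean, followed by Cntn6 at 58.6%, Cntn2 at 71.0% and Cntnap5b at 72.5%. The most abundant member, Cntn1, had a ventral mean of 102% of the dorsal mean. A call required that limma gave an adjusted p (Benjamini-Hochberg method, all genes) below 0.05 and that the mean FPKM of the regions differed by over 20%. All 10 members passed the filter of a mean FPKM of at least 1. The same rule called 2.15% of the 13674 genes tested D>V and 1.45% V>D. The median log2(V/D), the log2 ratio of ventral to dorsal mean FPKM, was −0.13 over the members and −0.01 over all genes tested.

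**Figure D1:**
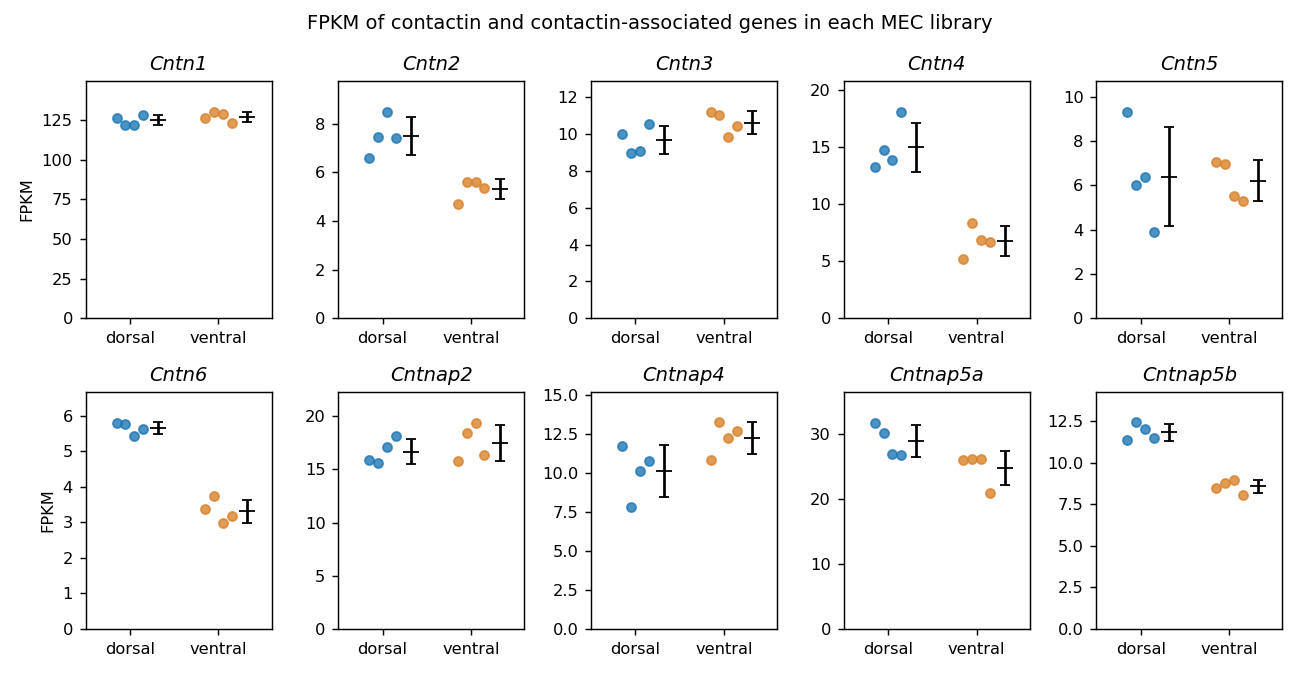
FPKM of each member in the 4 dorsal libraries (blue) and the 4 ventral libraries (orange), on linear axes from 0 that differ between panels, with points in header order. The black bar beside each group is its mean ± SD (n = 4). The groups stand apart for Cntn2, Cntn4, Cntn6, Cntnap5a and Cntnap5b and overlap for the others.

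RefSeq promoters were matched by symbol for 8 of the 10 members. Those of Cntn4 and Cntnap5b are shown, since both genes were called D>V and the 250 bases before their first listed start overlap no exon of GENCODE M21. The sequences are from build GRCm38.p6, at chr6:106118515-106118764 for Cntn4 and chr1:99772151-99772400 for Cntnap5b, both on the plus strand, and capitals mark motif matches.
Cntn4: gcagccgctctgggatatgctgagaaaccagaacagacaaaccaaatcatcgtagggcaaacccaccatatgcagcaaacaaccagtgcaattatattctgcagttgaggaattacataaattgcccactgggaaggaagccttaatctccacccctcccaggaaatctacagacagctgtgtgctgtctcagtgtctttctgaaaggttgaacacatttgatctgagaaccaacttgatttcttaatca
Cntnap5b: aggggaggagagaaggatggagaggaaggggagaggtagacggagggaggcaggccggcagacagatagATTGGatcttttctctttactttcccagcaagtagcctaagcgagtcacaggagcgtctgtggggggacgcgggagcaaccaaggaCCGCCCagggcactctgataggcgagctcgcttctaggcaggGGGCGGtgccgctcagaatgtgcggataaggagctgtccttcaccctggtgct
Both strands were searched for the GC box GGGCGG, the E-box CACGTG, the TATA box TATAAA and the CCAAT box, whose letters are not contained in each other. The promoter of Cntnap5b held 2 GC boxes and 1 CCAAT box, and that of Cntn4 held none of the 4 motifs. Among all 32851 promoter windows of this length, 32.7% held a GC box, 33.8% a CCAAT box, 12.4% a TATA box and 6.02% this E-box. GC content was 60.0% for Cntnap5b and 44.4% for Cntn4, against a median of 52.4% over all windows, and the windows held 12 and 2 CpG dinucleotides, against a median of 6. Another RefSeq window of Cntn4, at chr6:106118692-106118941, overlaps an exon and held 12 CpG dinucleotides at 50.0% GC. The values for Cntn4 thus depend on the start that is taken. The start of Cntn4 used by RefSeq lies inside the longer gene span of GENCODE, and that of Cntnap5b lies upstream of its span. These windows are therefore those of single annotated starts. Absence of a match says only that these letters are not in the window.

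Contactins were taken first. Cntn1 encodes contactin-1, the axonal partner of Caspr at the paranode and a protein also found on unmyelinated axons and on cells of the oligodendrocyte lineage. The gene (ENSMUSG00000055022) spans chr15:92051165-92341967 on the plus strand of GRCm38, as do all coordinates of genes given here from GENCODE M21. The dorsal libraries measured 126, 122, 122 and 128 FPKM and the ventral libraries 126, 130, 129 and 123 FPKM. These values overlapped and lay within a few percent of each other, with means of 125 ± 3.2 and 127 ± 3.18 FPKM (SD, n = 4 in each region). The limma fold change on the log2(FPKM + 1) scale, ventral minus dorsal, was 0.03 (95% interval −0.09 to 0.15), with an adjusted p of 0.874.

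Cntn2 encodes contactin-2, also called TAG-1, which is made by projection neurons as well as by myelinating oligodendrocytes and binds Caspr2 at the juxtaparanode. The gene (ENSMUSG00000053024, chr1:132509427-132543256, minus strand) measured 6.59, 7.47, 8.48 and 7.41 FPKM dorsally and 4.71, 5.62, 5.59 and 5.34 FPKM ventrally. Every dorsal library was above every ventral library, although the lowest dorsal value, in the library headed D1, was close to the ventral range. The means were 7.49 ± 0.774 and 5.31 ± 0.419 FPKM, and log2(V/D) was −0.49. The limma fold change was −0.42 ± 0.09 (SE), with an adjusted p of 0.0247. This call was made in 2 of the 8 fits that each left out 1 library, whereas those of the other 3 genes were made in all 8. It was lost without the dorsal library headed V1, D2 or V2 and without the ventral library headed D3, D4 or V4. In these 8 fits the fold change lay between −0.48 and −0.37 and the adjusted p between 0.025 and 0.081.

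Cntn3 encodes contactin-3, an axonal contactin whose gene lies near those of Cntn4 and Cntn6 on chromosome 6 (ENSMUSG00000030075, chr6:102162655-102573101, minus strand). Its dorsal libraries measured 10.002, 8.998, 9.073 and 10.567 FPKM and its ventral libraries 11.175, 11.043, 9.858 and 10.412 FPKM. The groups overlapped, with means of 9.66 ± 0.758 and 10.6 ± 0.608 FPKM, and the fold change of 0.13 (95% interval −0.04 to 0.29) had an adjusted p of 0.463.

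Cntn4 encodes contactin-4, which acts in the targeting of sensory axons and whose human gene has been studied in autism. The gene (ENSMUSG00000064293, chr6:105677660-106699310, plus strand) measured 13.3, 14.8, 13.9 and 18.1 FPKM in the dorsal libraries. In the ventral libraries it measured 5.18, 8.37, 6.84 and 6.70 FPKM. All dorsal values lay well above the highest ventral value, with means of 15.01 ± 2.14 and 6.77 ± 1.30 FPKM. This gave a log2(V/D) of −1.15 and a limma fold change of −1.05 ± 0.13 (SE), with an adjusted p of 0.0022. The gene was called in all 8 fits that left out 1 library, with fold changes from −1.14 to −0.94.

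Cntn5 encodes contactin-5, also called NB-2, which is known from the auditory pathway and from synapse formation. The gene (ENSMUSG00000039488, chr9:9660891-10904775, minus strand) measured 9.32, 6.02, 6.36 and 3.88 FPKM dorsally and 7.07, 6.96, 5.51 and 5.31 FPKM ventrally. The dorsal libraries enclosed the whole ventral range, and their SD of 2.23 FPKM around a mean of 6.40 was the widest relative to the mean among the members. The ventral mean was 6.21 ± 0.93 FPKM. The fold change was 0.00 with a 95% interval from −0.43 to 0.44 (adjusted p = 0.995), so a difference as large as those called in Cntn2 and Cntnap5b lies within the interval. Exons of this gene overlap those of Gm32710 on the opposite strand, and since no strand setting of the counting is given, reads of both genes cannot be told apart.

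Cntn6 encodes contactin-6, also called NB-3, a ligand in neurite growth and synapse formation. The gene (ENSMUSG00000030092, chr6:104492790-104863406, plus strand) had the lowest mean of the members, yet its dorsal libraries were closely spaced at 5.80, 5.75, 5.43 and 5.61 FPKM. The ventral libraries measured 3.36, 3.73, 2.97 and 3.17 FPKM. The groups did not overlap, with means of 5.65 ± 0.167 and 3.31 ± 0.327 FPKM and a log2(V/D) of −0.77. The limma fold change was −0.63 ± 0.08 (SE), with an adjusted p of 0.00223, and the gene was called in all 8 fits without 1 library.

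Among the contactin-associated proteins, Cntnap2 encodes Caspr2, the partner of contactin-2 at the juxtaparanode and a gene of cortical development linked to autism and epilepsy. Its gene (ENSMUSG00000039419) spans chr6:45059357-47304213 on the plus strand. It measured 15.9, 15.6, 17.1 and 18.1 FPKM dorsally and 15.8, 18.4, 19.4 and 16.4 FPKM ventrally. The groups overlapped almost fully, with means of 16.7 ± 1.16 and 17.5 ± 1.71 FPKM and a fold change of 0.06 (95% interval −0.12 to 0.24, adjusted p = 0.78). This interval does not reach the fold change of −0.42 found for Cntn2, although the difference between the genes was not itself tested.

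Cntnap4 encodes Caspr4, a presynaptic protein of interneurons and of dopaminergic cells. The gene (ENSMUSG00000031772, chr8:112570043-112882717, plus strand) measured 11.7, 7.80, 10.1 and 10.8 FPKM dorsally and 10.8, 13.2, 12.2 and 12.7 FPKM ventrally. It was the only member with an unadjusted p under 0.05 and a higher ventral mean (12.2 ± 1.04 against 10.1 ± 1.67 FPKM), but the groups overlapped. The fold change of 0.26 ± 0.11 (SE) had an adjusted p of 0.294. Exons of Cntnap4 overlap those of Gm45904 on the opposite strand.

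Cntnap5a and Cntnap5b encode Caspr5-1 and Caspr5-2, brain proteins whose roles are less well known, from genes on chromosome 1. Cntnap5a (ENSMUSG00000070695, chr1:115684756-116587323, plus strand) measured 31.8, 30.2, 27.0 and 26.8 FPKM dorsally and 26.04, 26.13, 26.20 and 20.97 FPKM ventrally. The groups did not overlap, but the lowest dorsal and highest ventral values nearly met. With means of 28.9 ± 2.47 and 24.8 ± 2.58 FPKM the fold change was −0.21 ± 0.09 (SE), and its adjusted p of 0.272 did not pass. Cntnap5b (ENSMUSG00000067028, chr1:99772765-100485942, plus strand) measured 11.34, 12.43, 12.02 and 11.49 FPKM dorsally and 8.50, 8.75, 8.96 and 8.05 FPKM ventrally. A clear gap separated the regions, with means of 11.8 ± 0.502 and 8.57 ± 0.393 FPKM and a log2(V/D) of −0.46. The fold change of −0.42 ± 0.06 (SE) had an adjusted p of 0.00556 and was called in all 8 fits without 1 library. The difference between the regional effects of these related genes was not tested.

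**Figure D2:**
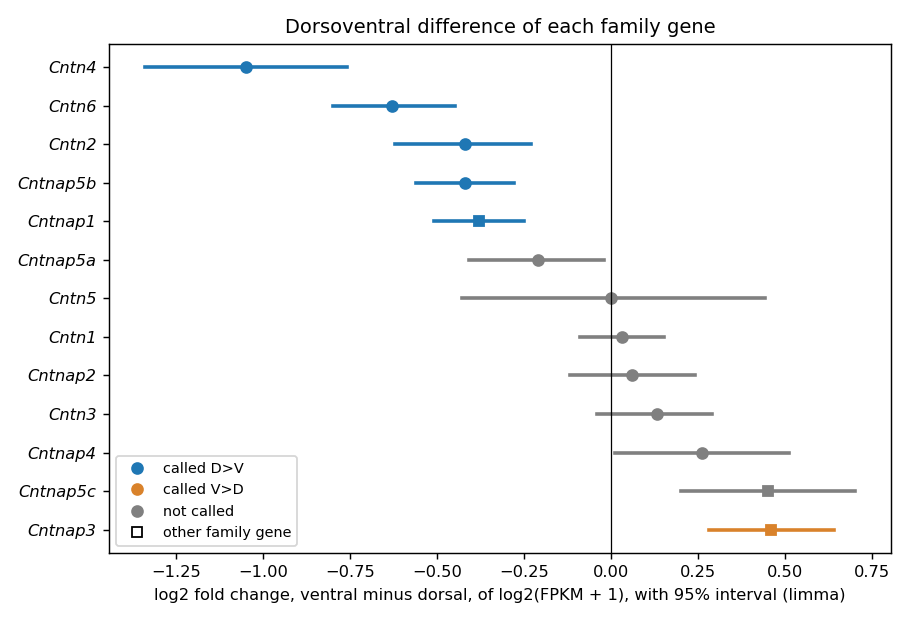
Log2 fold change (ventral minus dorsal) of log2(FPKM + 1) with its 95% interval from limma, for the 10 members (circles) and the 3 other family genes (squares). Cntn4, at −1.05, and Cntn6, at −0.63, lie farthest to the dorsal side, and Cntnap3, at 0.46, farthest to the ventral side.

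In 5 of the 10 members, Cntn2, Cntn4, Cntn6, Cntnap5a and Cntnap5b, all 4 dorsal libraries were above all 4 ventral libraries, which held for 6.17% of all genes tested. The opposite arrangement was found in 0 members and in 4.95% of all genes. By role, those called were 3 of the 6 contactins and 1 of the 4 contactin-associated members, all D>V, a call given to 2.15% of all genes tested. Each of the 4 groups of mice gave tissue of both regions, but neither the labels nor the headers say which dorsal and ventral library share a group, so the comparison was unpaired.

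The 3 other family genes, which are not members, differed from each other. Cntnap1, which encodes Caspr, the paranodal partner of contactin-1, measured 17.9 to 18.9 FPKM dorsally and 13.3 to 14.5 ventrally. It was called D>V at a fold change of −0.38 (adjusted p = 0.00688), whereas Cntn1 was not called. Exons of Cntnap1 overlap those of Plekhh3 on the opposite strand. Cntnap3, a Caspr3 gene, was called V>D, with 5.55 to 6.68 FPKM dorsally, 7.95 to 9.24 FPKM ventrally and a fold change of 0.46 (adjusted p = 0.0126). Cntnap5c had the lowest level, 1.08 to 1.45 FPKM dorsally and 1.68 to 2.40 FPKM ventrally. Its fold change of 0.45 did not pass (adjusted p = 0.0568), although its libraries did not overlap. Across the 13 family genes, members included, 5 were called D>V and 1 V>D, against 2.15% and 1.45% of all genes tested.

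FPKM is a level per exon length, so the members can be ranked. Over all 8 libraries Cntn1 was the most abundant at 126 ± 3.2 FPKM, above 97.7% of the genes tested, followed by Cntnap5a at 26.9 ± 3.21 and Cntnap2 at 17.1 ± 1.42 FPKM. These 3 kept their order in all 8 libraries. Cntnap4 (11.2 ± 1.71), Cntn4 (10.9 ± 4.70), Cntnap5b (10.2 ± 1.79) and Cntn3 (10.1 ± 0.818 FPKM) followed at nearly equal means, and none of these neighbours held its place in all libraries. Their order depended on the region. Cntn4 was above Cntnap4 in all 4 dorsal libraries and in none of the ventral ones, and Cntnap5b was above Cntn3 in all 4 dorsal libraries and in none of the ventral ones. Cntn2 (6.40 ± 1.30) and Cntn5 (6.30 ± 1.59 FPKM) did not differ beyond their spread, and Cntn6 had the lowest mean over both regions, 4.48 ± 1.27 FPKM. Cntn5 was above Cntn6 in 7 of the 8 libraries, the exception being the dorsal library headed V2.

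The make-up of the contactin transcripts can be given as shares of their sum. The 6 contactins summed to 169 ± 4.47 FPKM dorsally and 159 ± 4.95 FPKM ventrally (n = 4 each). Cntn1 made up 73.8% ± 0.0881 of the dorsal sum and 79.7% ± 0.971 of the ventral sum. The share of Cntn4 was 8.89% ± 1.12 dorsally and 4.25% ± 0.729 ventrally, and that of Cntn6 was 3.35% ± 0.119 and 2.08% ± 0.167. The 5 contactins other than Cntn1 summed to 44.2 ± 1.27 and 32.2 ± 2.35 FPKM. Within that sum Cntn4 was the largest dorsally, at 33.9% ± 4.33, and Cntn3 the largest ventrally, at 33.0% ± 1.99. The 4 contactin-associated members summed to 67.6 ± 2.17 FPKM dorsally and 63.1 ± 4.27 FPKM ventrally. Cntnap5a held 42.8% ± 2.95 and 39.3% ± 2.65 of these sums, and Cntnap5b 17.5% ± 1.22 and 13.6% ± 0.363. These shares restate the levels above and were not tested.

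Markers of cell types were taken next. Slc17a7, a glutamatergic neuron marker that encodes the main cortical vesicular glutamate transporter, measured 91.1 to 120 FPKM over the libraries. This level shows a tissue with glutamatergic neurons but cannot tell the MEC from neighbouring cortical areas. Of the 12 oligodendrocyte markers, 12 were called D>V, with a median log2(V/D) of −0.89, among them Mbp at −0.86 and Mobp at −1.02, which encode structural proteins of myelin. None of these 12 was at 0 in a library, and their summed FPKM was 956 to 1264 dorsally and 520 to 684 ventrally. In bulk tissue, fewer cells of a type and less RNA per cell cannot be told apart. The list for oligodendrocyte precursors gave 0 calls by limma among 5, and its summed FPKM was 22.9 to 26.4 dorsally and 24.5 to 25.6 ventrally. Of these genes 2 had an unadjusted p under 0.05, Pdgfra, higher ventrally at 0.26, and Sox10, higher dorsally at −0.40. Sox10 is also expressed by mature oligodendrocytes and is not specific to precursors. Within each region Cntn2, which oligodendrocytes also express, and Cntn4 were lowest in the library with the lowest sum of the oligodendrocyte markers, headed D1 dorsally and D3 ventrally. Cntnap5b was lowest in that library dorsally but not ventrally, and Cntn6 in neither region. The libraries headed D1 and D3 also had the lowest sums of their region for the glutamatergic, interneuron and oligodendrocyte precursor lists. The glutamatergic sum was mostly Snap25, at 3020 FPKM in the library headed D1 and 2551 in that headed D3. Slc17a7 was not lowest in either, at 104 and 112 FPKM. Sst had the highest mean of the interneuron list and was lowest in both, at 81.5 and 169 FPKM. The precursor sums of the ventral libraries headed D3 and V3 were close, at 24.5 and 24.9. Whether the coincidence is particular to the oligodendrocyte markers was not tested. The part of any of these lists in the differences of Cntn2, Cntn4, Cntn6 and Cntnap5b was not tested.

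**Figure D3:**
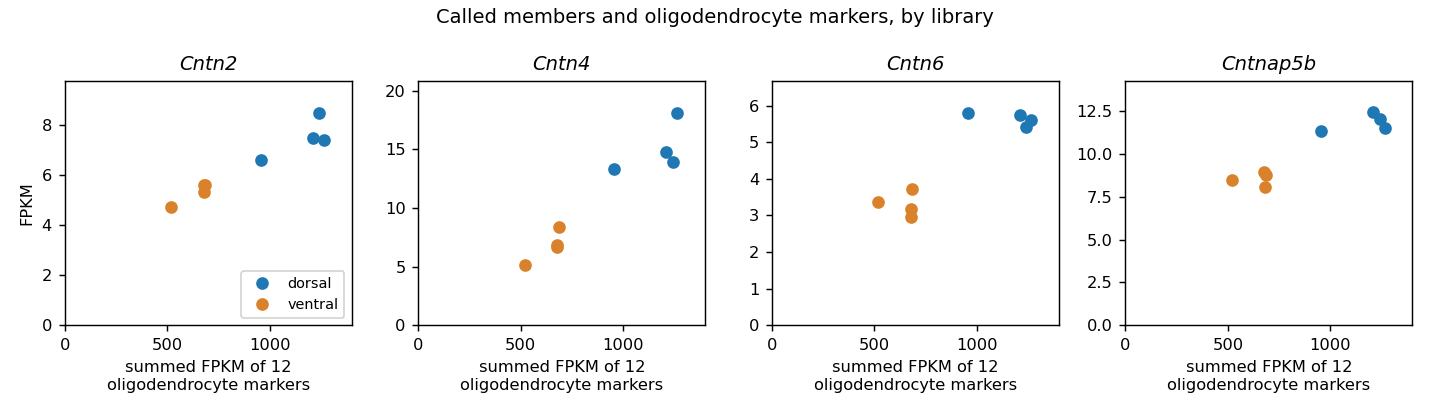
FPKM of the 4 members called D>V (vertical axes from 0) against the summed FPKM of 12 oligodendrocyte markers (horizontal axes) in the 4 dorsal (blue) and 4 ventral (orange) libraries. Both axes separate the regions in each panel, with marker sums of 520 to 684 in ventral and 956 to 1264 in dorsal libraries, so the points form a group for each region.

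Fewer markers of other cells were called. Among 10 interneuron markers 2 were called D>V, Pvalb, the calcium-binding protein of fast-spiking cells, at a log2(V/D) of −1.24 and Lamp5 at −0.61, and 1 was called V>D, Sst, encoding somatostatin, at 1.01. At an unadjusted p under 0.05, 3 of the 10 were higher dorsally and 3 ventrally, against 1191 and 1000 of the 13674 genes tested. The summed FPKM of this list was 291 to 367 dorsally and 361 to 452 ventrally. Among 8 glutamatergic markers, 1 was called, Slc17a6 at −0.58 (D>V). Astrocyte markers gave 0 calls by limma among 6, with 3 at an unadjusted p under 0.05, all higher ventrally. Microglial markers gave 0 among 5, with 2 at such a p, also higher ventrally. Endothelial and mural markers gave 0 among the 5 tested of 6, with 1 at such a p, higher dorsally. Of 5 genes listed for the subiculum and dentate gyrus, 3 were tested and 2 were called V>D, Fn1 at 0.62 and Nts at 2.43. The remaining tested gene, Prox1, was higher dorsally at −0.36 but was not called (limma, unadjusted p = 0.0169). Nts, which encodes neurotensin, is also expressed in deep layers of the MEC itself and is not specific to neighbouring tissue. Dcn (0.99) was the 1 called of 4 tested among 6 choroid plexus and leptomeningeal markers, and Ttr and Folr1, which define the choroid plexus, were listed at 0 in all ventral libraries and at no more than 0.128 FPKM dorsally. Which cells carry the members' transcripts was not measured.

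The partners of these proteins were compared as fixed lists. Among 12 genes of nodes and paranodes, 2 were called D>V by limma and 0 V>D (4 and 0 at an unadjusted p under 0.05), with a median log2(V/D) of −0.15. Those called were Kcnq3, a subunit of the M-current channel, at −0.41 (adjusted p = 0.0138), and Scn1a, a sodium channel, at −0.36 (adjusted p = 0.0221). Neurofascin (Nfasc), the glial partner of the paranodal complex, measured 26.0 to 31.7 FPKM dorsally and 23.0 to 30.8 ventrally. It was not called (limma, adjusted p = 0.491, named after its values were seen).

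Among 13 genes of the juxtaparanode and the Kv1 complex, 4 were called D>V by limma and 0 V>D (7 and 0 at an unadjusted p under 0.05), with a median of −0.24. Kcna1, a Kv1 subunit held at the juxtaparanode with contactin-2 and Caspr2, measured 40.3 to 45.6 FPKM dorsally and 27.9 to 30.4 ventrally (log2(V/D) of −0.54, adjusted p = 0.00162). The others were Lgi3 at −0.73, Lgi2 at −0.45 and Adam23, a receptor for LGI proteins, at −0.28 (adjusted p = 0.0444). Cntn2 was thus called in the same direction as Kcna1, though in only 2 of the 8 fits without 1 library, whereas Cntnap2 was not called. Kcna2, another Kv1 subunit, was not called either (log2(V/D) of −0.26, limma, adjusted p = 0.119, named after its values were seen).

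Among 20 receptors, ligands and related adhesion molecules, 0 were called D>V by limma and 4 V>D (2 and 6 at an unadjusted p under 0.05), with a median of 0.09. These were Tnc, the matrix protein tenascin-C that binds contactin-1, at 0.93, Chl1 at 0.34, Alcam at 0.31 and L1cam at 0.28, the last 3 being immunoglobulin superfamily adhesion molecules. Tnc was low, at 0.85 to 1.05 FPKM dorsally and 1.59 to 1.88 ventrally. Against all genes tested, of which 2.15% were called D>V and 1.45% V>D, each of these lists is given by its counts alone. At an unadjusted p under 0.05, 1191 of the 13674 genes tested were higher dorsally and 1000 ventrally.

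**Figure D4:**
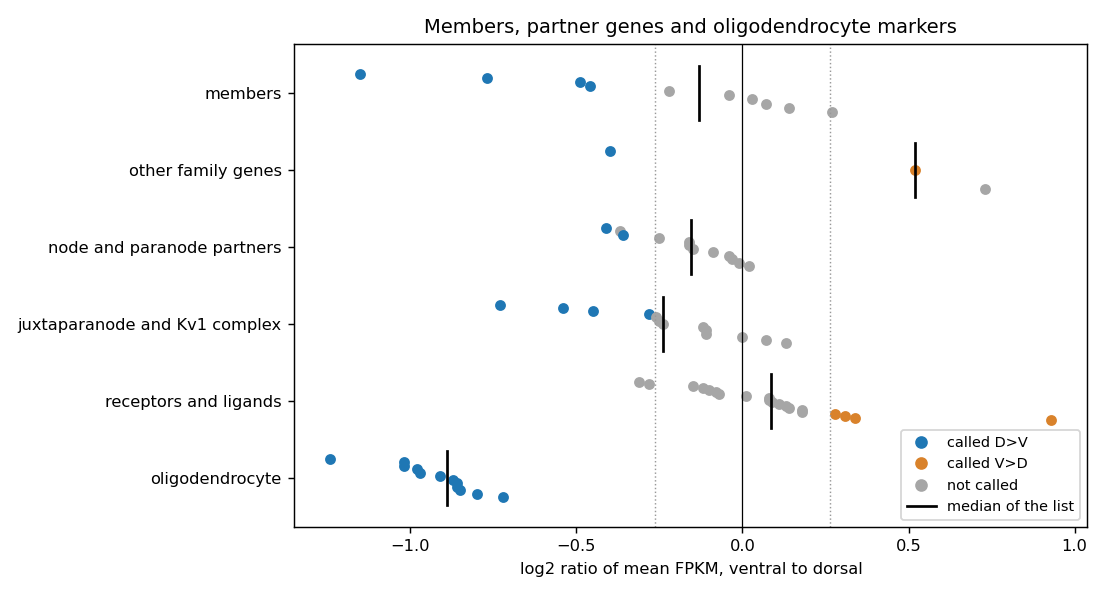
Log2 ratio of ventral to dorsal mean FPKM of each tested gene in 6 lists, coloured by its call, with the list median as a black line and dotted lines at a difference of 20%. Members and juxtaparanode genes have calls on the dorsal side, receptors and ligands on the ventral side, and the 12 oligodendrocyte markers lie between −1.24 and −0.72.

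Likeness to the called members was described by Pearson's r of log2(FPKM + 1) over the 8 libraries, which all share the split between regions. For Cntn2 the highest values were those of Mbp (r = 0.981), which encodes myelin basic protein, Cnp (0.98), a myelin enzyme, and Insc (0.979). For Cntn4 they were Syt1 (0.993), the calcium sensor of synaptic vesicles, Slc24a2 (0.991) and Elovl7 (0.99). Syt1 was not called, with a log2(V/D) of −0.15. For Cntn6 they were Plcxd2 (0.993), Rerg (0.991) and the ephrin receptor gene Epha4 (0.99). For Cntnap5b they were Ephb1 (0.998), another ephrin receptor gene, Lgi3 (0.996) and Kcnj10 (0.995), a potassium channel of glia.

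The genes also share a physical feature that did not enter their choice. In GENCODE M21, 9 of the 10 members span at least 250 kb of genome, the exception being Cntn2 at 33.8 kb, whereas the median of the 13490 tested genes with a span was 22.9 kb. Cntnap2 spans 2244.9 kb, and 4 tested genes are longer. Of the 641 tested genes of at least 250 kb, 5.93% were called D>V and 3.59% V>D, against 2.15% and 1.45% of all genes tested. Long genes were thus called more often in both directions, while their median log2(V/D) was −0.01.

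On chromosome 6, Cntn3, Chl1, Cntn6 and Cntn4 lie in this order within 4536.7 kb. Between Cntn3 and Chl1 are 937.5 kb, between Chl1 and Cntn6 742.6 kb, and between Cntn6 and Cntn4 814.3 kb. Of the 27 annotated genes of any type in this stretch, 5 were tested, the other being the long noncoding RNA gene Gm15631. Along the stretch log2(V/D) was 0.14 for Cntn3, not called, 0.34 for Chl1, called V>D, −0.77 for Cntn6, called D>V, −0.30 for Gm15631, not called, and −1.15 for Cntn4, called D>V. Chl1 measured 55.9 ± 4.71 FPKM dorsally and 70.9 ± 4.83 ventrally (adjusted p = 0.0394), so neighbouring adhesion genes were called in opposite directions.

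**Figure D5:**
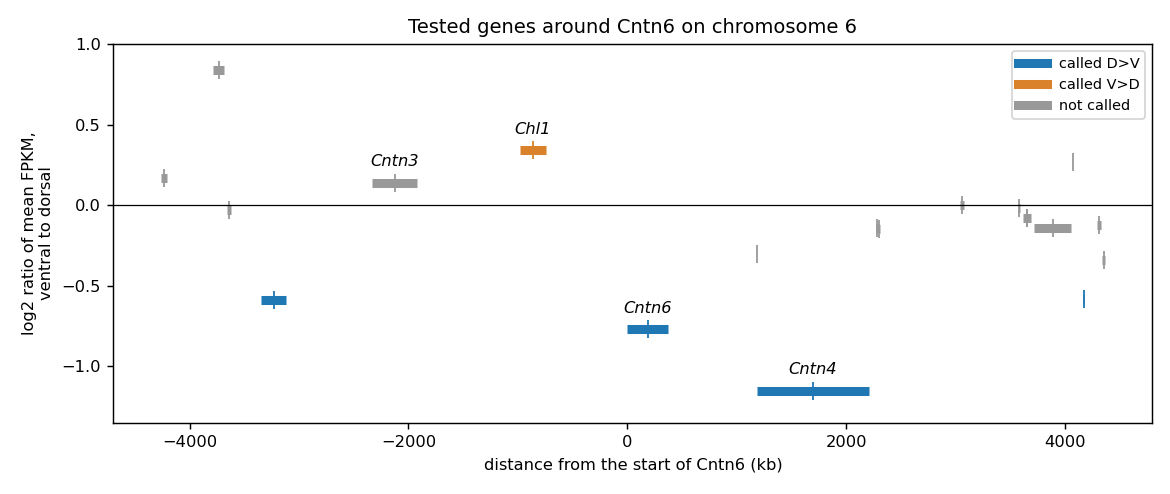
Log2 ratio of ventral to dorsal mean FPKM of the tested genes around Cntn6 (vertical axis) against their distance in kb from its start (horizontal axis). Bars span each gene, and ticks mark their centres. Cntn6 and Cntn4 lie at −0.77 and −1.15, while Chl1 and Cntn3 lie at 0.34 and 0.14.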

How the data were processed

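RNA-Seq of 4 dorsal and 4 ventral MEC pools was analysed from deposited values. Per the labels and the methods of the study, the authors used CASAVA 1.8, TopHat2 2.0.8 with Ensembl release 73 (GRCm38) and Cuffdiff 2, and the deposited FPKM values are those of Cuffdiff, scaled between libraries. Depth is unknown from FPKM, so no counting interval is given. The deposited fold changes, p-values and q-values of the authors' comparison were not used. A further 4 columns with values per sample were not used, since their fragment numbers by condition and replicate were not matched to single samples.

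Genes with the authors' status OK and a mean FPKM of at least 1 (13674 genes) entered limma 3.58.1 (R 4.3.3) as log2(FPKM + 1), unpaired and with a trend of the variance on the mean, with 4 libraries in each region. Fold changes on this scale understate those of low genes. P-values were adjusted by the Benjamini-Hochberg method over all genes tested. Calls needed an adjusted p below 0.05 and a difference between mean FPKM of over 20%. Members, gene lists and tests were chosen with earlier results of these data known. Named were the members, 3 other family genes, at most 4 called genes each way of a partner list, at most 3 genes of a marker list (called first, then by level), and the 3 genes most correlated with each called member. Some items that this rule takes are not reported here. The scripts were tested on simulated data with 13674 genes and 4 libraries in each region. Of 100 genes changed by 1 (log2) 92 were called, and of 100 changed by 0.5 (log2) 53 were called. Outside the changed genes 8 calls were made, and with no gene changed 0. A gene that was not called can therefore still differ by about 0.5. Alternatives covered the added constant, filters, threshold, scaling, trend, weights, the regions of the headers, an exact permutation test and each library left out. Tables and plots used Python 3.11.15, NumPy 2.4.6, pandas 2.3.3 and matplotlib 3.10.9.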

Additional observations from a re-analysis of the deposited data

Results flagged for a closer look

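Among the members and other family genes, 26 groups of 4 libraries were looked at for a library far from the rest, and 1 was found. Cntnap5a measured 20.97 FPKM in the ventral library headed V4, while the other ventral libraries measured 26.04, 26.13 and 26.20 FPKM. This gap was 0.97 of the range of the group, above Dixon's 95% critical value for 4 samples. Chance gives such a library in about 1 of 20 groups. Without that library the gene was still not called (the adjusted p over the 8 fits that each left out 1 library was 0.24 to 0.491).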

How the results depend on the processing

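Over the 10 members and all alternatives, 209 values were compared with those reported, of which 185 kept their direction and their side of the threshold, 12 kept their direction but lost the call and 12 turned their direction. With the regions of the column headers 0 members were called D>V, and fold changes turned to 0.00 for Cntn1, 0.04 for Cntn2, 0.27 for Cntn4, −0.30 for Cntn5, 0.05 for Cntn6, −0.03 for Cntnap4 and, among the other family genes, −0.11 for Cntnap3. In the 4 libraries on which header and assignment name the same region, 0 members were called D>V, with 2 libraries in each region. In this fit 4 members had an unadjusted p under 0.05, and the number of all genes at such a p is not given. There Cntn4 was at −0.78, Cntn6 at −0.57, Cntn2 at −0.39 and Cntnap5b at −0.43, and Cntn5 turned to −0.30. Cntn5 turned to 0.00 with sample quality weights, and its fold change was −0.18 to 0.18 when 1 library was left out. Rescaling the libraries to one total FPKM took the call from Cntn2 (−0.38, adjusted p = 0.0539), moved the median fold change of all genes from −0.0058 to 0.0374 and changed the calls over all genes from 294 D>V and 198 V>D to 195 and 201. Cntnap5c was called without a trend (0.45, adjusted p = 0.0319), with sample quality weights (0.49, adjusted p = 0.0346) and by the exact permutation test alone (unadjusted p = 0.0286). With a mean FPKM of at least 5 required, Cntn6 was not tested, at a mean of 4.48 FPKM. Leaving out 1 library gave 3 to 4 members called D>V and 0 called V>D. The causes of these changes were not tested. No paired analysis was possible because neither the labels nor the column headers say which dorsal and ventral library come from the same group of mice.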
